A study of Mus musculus with 16 samples.

Results

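The 27 genes described here make, load, clear and sense the inhibitory transmitter GABA or mark the interneurons that release it. They were taken by symbol from the 19935 genes with a single-symbol probe set on the array, with the brightest probe set standing for each gene. By role they are Gad1, Gad2 and Slc32a1 (synthesis and vesicle loading), Slc6a11 and Abat (uptake and breakdown), and Gphn (receptor scaffold). Receptor subunits are Gabra2, Gabra3, Gabra4, Gabra5, Gabrb1, Gabrb2, Gabrg1, Gabrg3 and Gabrd (GABA-A) and Gabbr1 and Gabbr2 (GABA-B). Pvalb, Calb2, Reln, Nos1 and Erbb4 mark interneuron classes, and Lhx6, Dlx1, Dlx2, Dlx5 and Sox6 are transcription factors of the interneuron lineage.

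Hippocampal RNA of 3-month-old female mice on an F2 background of C57BL/6J and DBA was read on 16 Affymetrix Mouse Gene 1.0 ST arrays, each from a pool of 4 animals. The mice were cbp+/-, heterozygous for a deficiency of Crebbp, which encodes the histone acetyltransferase CBP, or wild-type littermates. CBP_EE (n = 3 arrays) and WT_EE (n = 3) had 2 weeks in a large box with wheels, tubing and toys, and CBP_SC (n = 5) and WT_SC (n = 5) lived in standard cages. Pooling leaves the spread between single animals unmeasured; the labels call the pools of a group independent biological replicates.

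GABA is made from glutamate by 2 decarboxylases, packed into vesicles, and sensed by GABA-A receptors, which are chloride channels built from several subunits, and by GABA-B receptors, which act through G proteins. In the hippocampus it comes from sparse interneurons of several classes, and most of its receptors sit on pyramidal and granule cells. In tissue RNA, fewer cells of a class and less RNA per cell cannot be told apart. CBP is a coactivator of CREB, a factor that binds the cAMP response element (CRE) in promoters.

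Promoter windows from RefSeq (build GRCm38.p6, 250 bases before to 50 after a gene's start) were found for 23 of the 27 genes, with Abat, Gabrd, Calb2 and Dlx5 unmatched. The palindromic CRE TGACGTCA was present, on either strand, in 0 of these 23 genes, against 2.03% of all 27025 genes of the table. Its half-site, TGACG or on the other strand CGTCA, lay in 5 of the 23 (21.7%), against 23% of all genes: Gad2, Dlx2, Nos1, Sox6 and Gabrb2. Both motifs overlap, since the palindrome holds both half-sites. The 250 bases before the start are shown for Nos1, Sox6 and Gad2, the genes with a half-site whose genotype values are set out by pair of arrays below, a choice made with those values known. They are written 5′ to 3′ with the half-site in capitals. The windows are chr5:117866589-117866838 on the plus strand for Nos1, chr7:116038745-116038994 on the minus strand for Sox6 (its first of several windows) and chr2:22622077-22622326 on the plus strand for Gad2.
Nos1: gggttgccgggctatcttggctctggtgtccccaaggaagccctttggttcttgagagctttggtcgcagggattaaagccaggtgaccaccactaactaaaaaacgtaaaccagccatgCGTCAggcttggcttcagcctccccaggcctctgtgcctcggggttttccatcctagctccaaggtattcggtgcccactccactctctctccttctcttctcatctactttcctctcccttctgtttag
Sox6: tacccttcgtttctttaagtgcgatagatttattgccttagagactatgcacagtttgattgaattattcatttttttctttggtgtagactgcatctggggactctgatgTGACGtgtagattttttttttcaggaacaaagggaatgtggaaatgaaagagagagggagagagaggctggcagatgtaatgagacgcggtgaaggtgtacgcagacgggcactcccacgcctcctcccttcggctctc
Gad2: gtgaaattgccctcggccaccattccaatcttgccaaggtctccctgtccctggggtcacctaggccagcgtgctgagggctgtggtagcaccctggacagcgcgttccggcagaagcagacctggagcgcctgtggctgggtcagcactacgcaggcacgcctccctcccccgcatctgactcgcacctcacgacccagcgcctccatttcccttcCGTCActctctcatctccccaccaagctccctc
The half-site began 130 bases before the start in Nos1, 139 in Sox6 and 33 in Gad2. Its share among these genes was close to that of the whole table, and a match of letters is a description of the window, not a binding site.

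Values are log2 of the deposited signal, and a difference of 1 would be a doubling. They compare arrays for 1 probe set, never 1 gene with another. The mean log2 signal of 26 of the 27 genes lay above the median brightness of the 21780 probe sets tested, the exception being Dlx2, and Gad1 was brighter than 97.4% of them. The 12 markers of hippocampal principal neurons were brighter than 63.7% to 99.0% of probe sets. Crebbp itself (probe set 10437332) ranged from 9.33 to 9.37 in CBP_EE, 9.35 to 9.88 in CBP_SC, 9.18 to 9.35 in WT_EE and 9.21 to 9.64 in WT_SC. Its signal was thus higher on the arrays labelled cbp+/- in 8 of 8 same-numbered pairs, by 0.12 ± 0.081 (SE; limma adjusted p = 0.999). The labels do not say which part of the gene is altered, so this probe set does not check the labels, and the genotype of each array below is the one labelled.

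The arrays fell into 4 sets that cross the study's groups. By Ward clustering on all probe sets, set 1 held replicates 1 and 2 of each of the 4 groups, set 2 both SC_3 arrays, set 3 both SC_4 arrays, and set 4 both SC_5 and both EE_3 arrays. Each set therefore holds both genotypes equally, and sets 2 and 3 hold no enriched array. The median share of a gene's variance that lay between these sets was 77.6% over the 27 genes and 38.9% over all probe sets. Housing held a median of 6.90% for the 27 genes and 9.21% for all, and genotype 1.96% and 2.39%. Clustering used these same arrays, so the variance between sets is in part a product of how they were formed, and no label says what separates them.

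**Figure D1:**
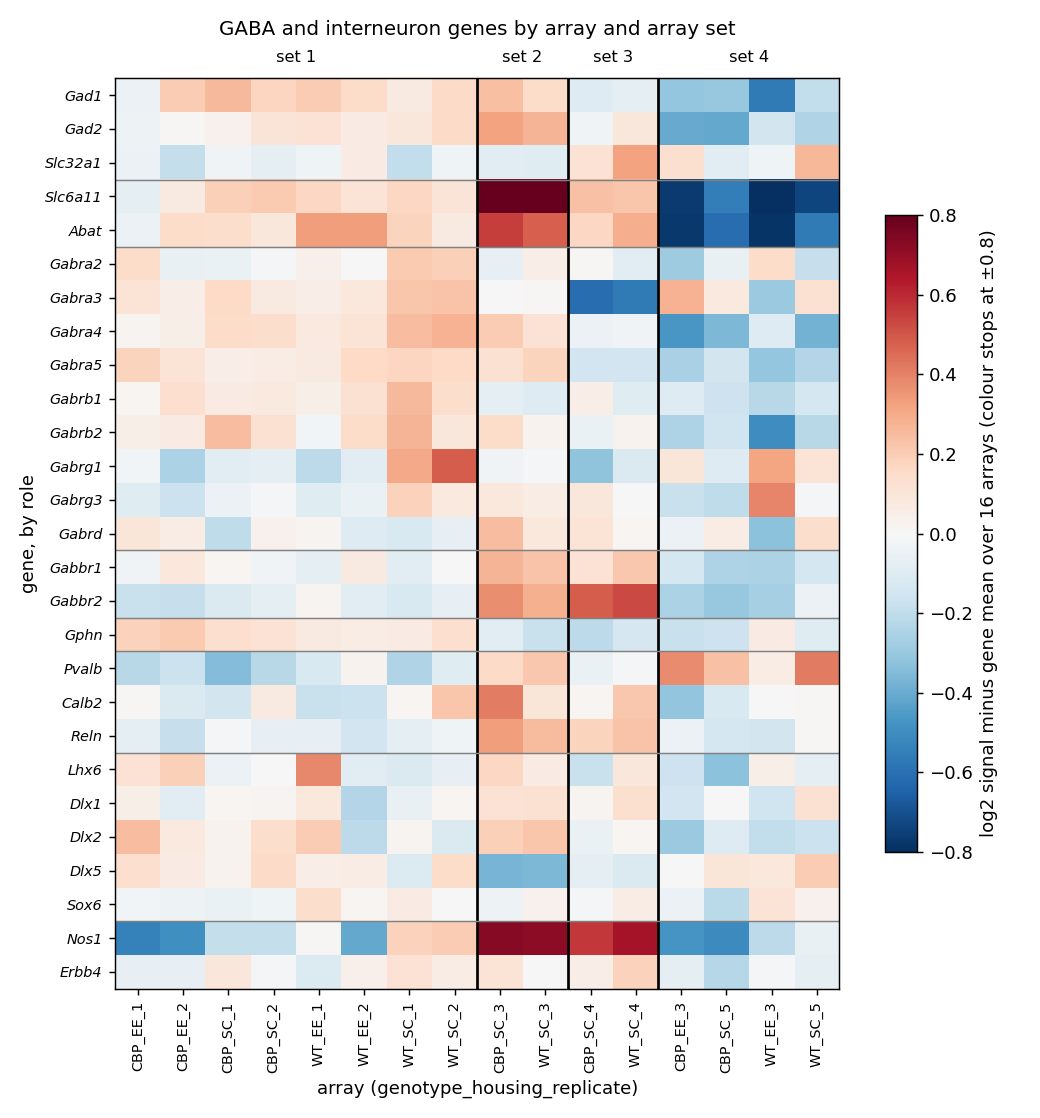
Log2 signal of each of the 27 genes on each of the 16 arrays minus the gene's mean over all arrays (colour, stopping at ±0.8), with genes in rows by role and arrays in columns by array set. Slc6a11 and Abat are lowest in set 4 and highest in set 2, and Nos1 is high in sets 2 and 3, which hold standard-cage arrays alone.

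On all 4 arrays of set 4, Gad1, Gad2, Slc6a11, Abat, Gabra4, Gabra5, Gabrb1, Gabrb2 and Gabbr1 read below all 8 arrays of set 1, which is 9 of 27 genes against 7.21% of all probe sets. Pvalb, the calcium-binding protein of fast-spiking basket cells, was the 1 gene above on all 4 (5.57% of all probe sets). The distance from set 1 to set 4 was −0.92 for Slc6a11 and −0.84 for Abat, larger than any housing or genotype difference of the 27 genes. Set 2 stood above all of set 1 for Gad2, Slc6a11, Abat, Gabbr1, Gabbr2, Pvalb, Reln, Dlx1 and Nos1, which is 9 of 27 genes against 16.8% of all probe sets for these 2 arrays. Sox6 (5.12% of its variance between sets) and Gabrg3 (5.93%) moved least with the sets.

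With the 4 group means fitted to all 16 arrays in limma, 0 of the 27 genes and 0 of 21780 probe sets passed an adjusted p of 0.05 in any of 7 comparisons (0% called). Housing was compared within cbp+/- and within wild type, genotype within standard cages and within enrichment, and each of them also averaged over the other factor; the interaction is the housing difference in cbp+/- minus that in wild type. A p that misses this threshold does not show that values are alike, so the differences are given with their SE and 95% interval. At an unadjusted p under 0.05, the genes numbered 1 of 27 for housing in cbp+/- (2.82% of all probe sets), 2 for housing in wild type (17.8%) and 4 for the averaged housing difference (19.1%). They numbered 2 for genotype in standard cages (0.987%), 1 for genotype in enrichment (5.23%), 0 for the interaction (2.66%) and 2 for the averaged genotype difference (3.91%).

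Of the 27 genes, Nos1 differed most between enriched and standard-cage mice. Averaged over genotypes, 22 of 27 genes read lower after enrichment, with a median difference of −0.08, while 41.1% of all probe sets and 65% of those brighter than the median read lower. Markers of some other cells moved with the list in this comparison. Lower were 9 of 12 hippocampal principal neuron markers (median −0.11), 10 of 12 astrocyte (−0.05) and 8 of 10 oligodendrocyte markers (−0.07). So were 8 of 11 choroid plexus (−0.06) and 5 of 7 thalamic markers (−0.07). Higher were 6 of 9 striatal (0.05) and 5 of 9 microglia markers (0.04). Of oligodendrocyte progenitor markers 4 of 8 were lower, and of endothelial markers 5 of 9. The part of these cells in the list's values was not tested. The 4 genes with an unadjusted p under 0.05 were Nos1, Dlx1, Calb2 and Reln, each lower after enrichment, where 5.73% of all probe sets had such a p and read lower. When array sets were fitted as a block, an alternative chosen after the data were seen, 20 of 27 genes read lower with a median of −0.03. Of all probe sets 41.9% did so in that fit. Quantile normalization left 17 of 27 lower (49.4% of all probe sets), and the arrays of set 1 alone 16 of 27 (39.6%).

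**Figure D2:**
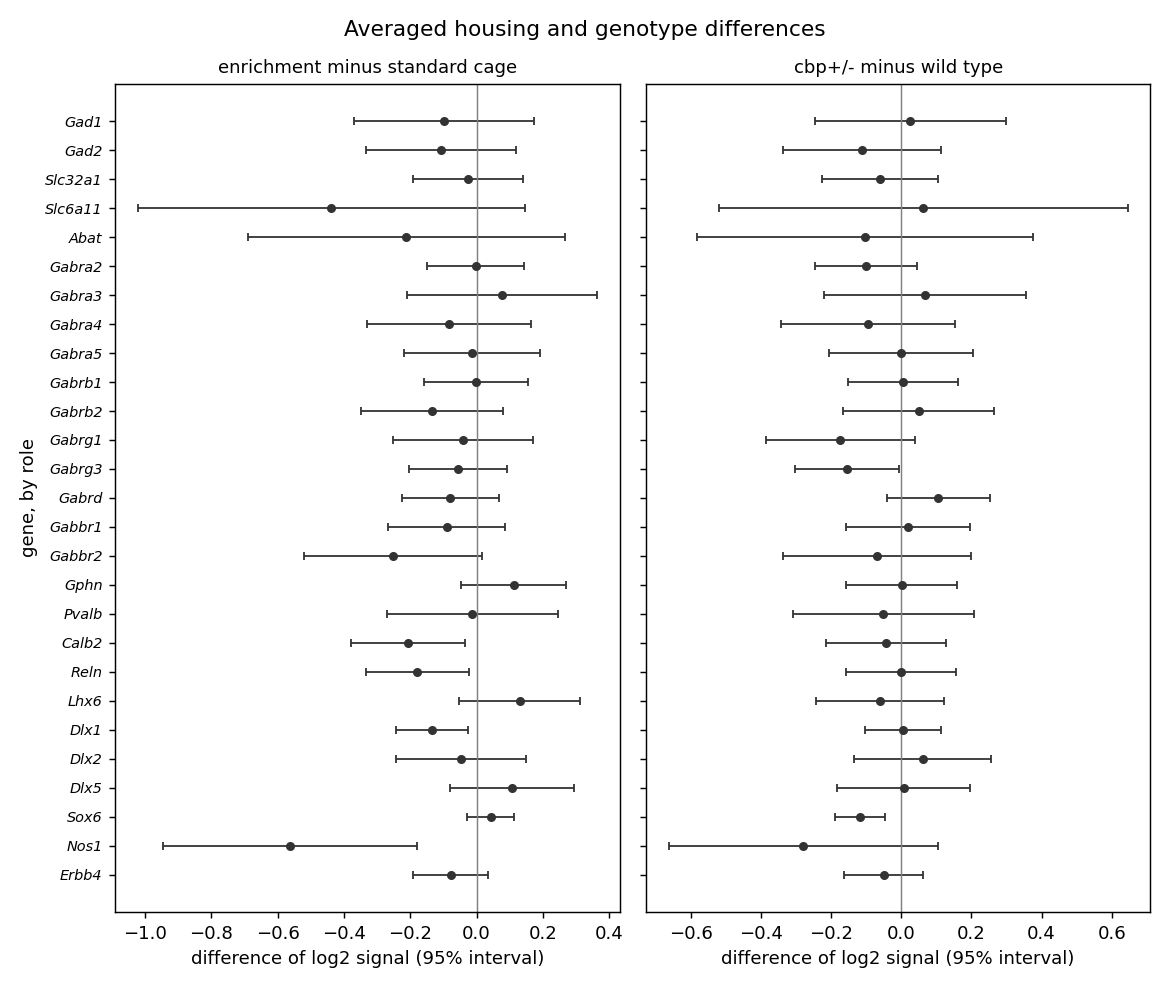
Difference of mean log2 signal with its 95% interval for each of the 27 genes, for enrichment minus standard cage averaged over genotypes (left) and for cbp+/- minus wild type averaged over housings (right). The interval of Nos1 on the left spans −0.95 to −0.18 and that of Sox6 on the right spans −0.19 to −0.05; adjusted over all probe sets, neither passed the threshold.

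Nos1 (probe set 10524909) encodes neuronal nitric oxide synthase, found in the hippocampus in ivy and neurogliaform interneurons among others. It read 7.15, 7.20 and 7.21 in CBP_EE against 7.50, 7.50, 8.41, 8.25 and 7.18 in CBP_SC. Wild-type arrays read 7.70, 7.28 and 7.48 after enrichment against 7.87, 7.89, 8.40, 8.35 and 7.63 in standard cages. The 4 highest values, 8.25 to 8.41, were those of SC_3 and SC_4 of both genotypes, and the housing groups overlapped in each genotype. The averaged difference was −0.56 ± 0.18 (SE, 95% interval −0.95 to −0.18), a fold of 0.677, with an adjusted p of 0.165 in limma. It was −0.58 in cbp+/- and −0.54 in wild type. Blocking on the array sets gave −0.26 ± 0.083 (adjusted p = 0.121). Within set 1 it was −0.36 ± 0.080 (limma adjusted p = 0.0179 over all probe sets), and in set 4 it was −0.06 with no test. In set 1, which was formed from these same values, 5470 of 21780 probe sets passed the threshold for averaged housing.

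Calb2 (calretinin) marks interneurons that contact other interneurons and, in mice, also hilar mossy cells and young granule neurons. It read 7.91, 7.78 and 7.58 in CBP_EE against 7.75, 7.97, 8.31, 7.91 and 7.77 in CBP_SC. Enriched wild-type pools gave 7.72, 7.72 and 7.89, below all 5 standard-cage wild-type values of 7.91, 8.12, 7.99, 8.11 and 7.90. Groups so separated and lower made up 2% of all probe sets in that comparison, and Calb2 was the 1 of the 27 genes among them. Its averaged difference was −0.21 ± 0.080 (SE; limma adjusted p = 0.201), and −0.14 ± 0.080 in the fit with array sets as a block. The wild-type difference was −0.23 ± 0.11, and within set 1 it was −0.30 in wild type and −0.01 in cbp+/-.

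Reln encodes reelin, secreted by Cajal-Retzius cells and by neurogliaform interneurons in the adult hippocampus. CBP_EE arrays read 8.0, 7.90 and 8.04 against 8.07, 8.02, 8.42, 8.26 and 7.94 in CBP_SC, and WT_EE arrays read 8.02, 7.93 and 7.94 against 8.01, 8.05, 8.33, 8.31 and 8.09 in WT_SC. As for Nos1, the SC_3 and SC_4 arrays held the 4 highest values. The averaged difference of −0.18 ± 0.073 (SE; limma adjusted p = 0.216) was −0.06 ± 0.039 in the fit with array sets as a block.

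Dlx1, a homeobox factor of the ganglionic eminences kept by some adult interneurons, had a narrow range. It read 7.36, 7.22 and 7.16 in CBP_EE, 7.33, 7.33, 7.43, 7.33 and 7.31 in CBP_SC, 7.39, 7.08 and 7.15 in WT_EE and 7.25, 7.33, 7.43, 7.44 and 7.43 in WT_SC. In each genotype the first enriched array overlapped the standard-cage arrays and the other two read below all of them. The averaged difference was −0.13 ± 0.050 (SE; limma adjusted p = 0.194), and −0.10 ± 0.056 in the fit with array sets as a block. Its neighbour Dlx2 differed by −0.05 ± 0.092 and Dlx5 by 0.11 ± 0.088, or −0.02 with that block. Lhx6, a factor of interneurons from the medial ganglionic eminence, differed by 0.13 ± 0.085, the largest positive difference of the 27 genes. It was 0.19 ± 0.078 (adjusted p = 0.184) in the fit with array sets as a block.

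**Figure D3:**
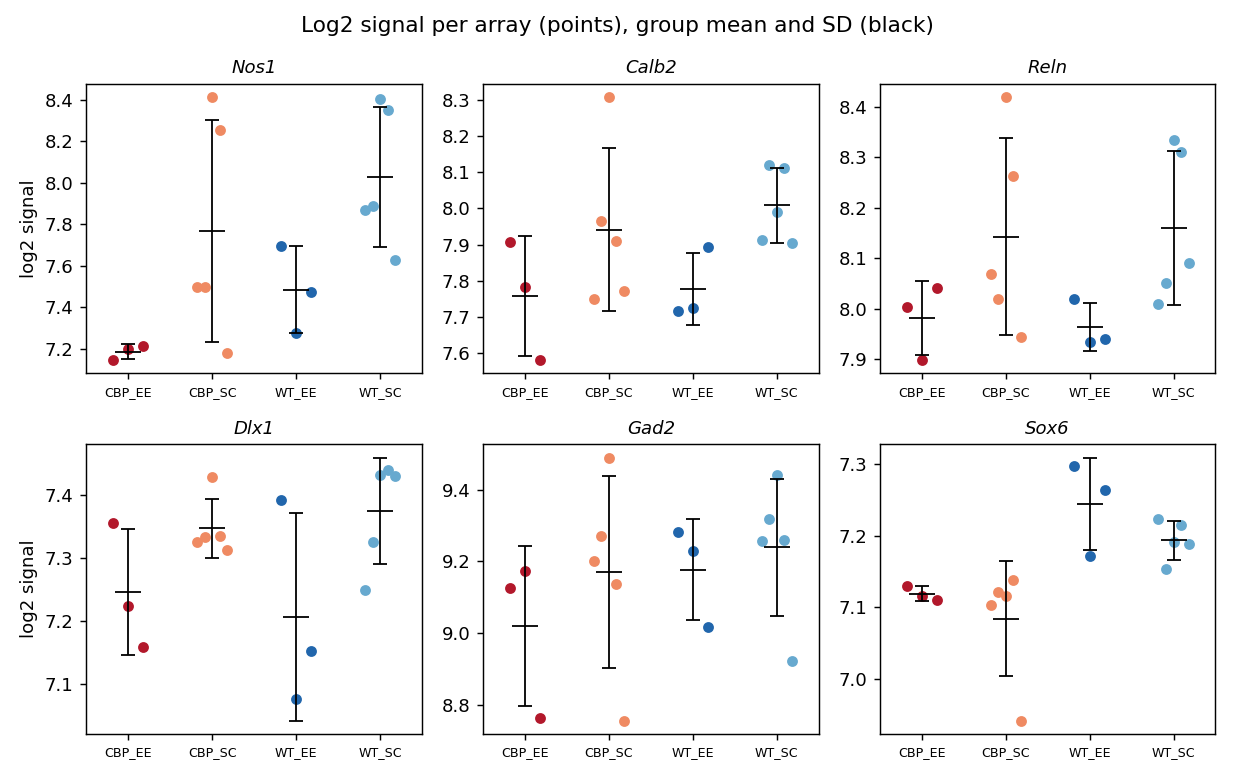
Log2 signal of Nos1, Calb2, Reln, Dlx1, Gad2 and Sox6 on each array (points) with the group mean and SD (black), in the order CBP_EE, CBP_SC, WT_EE and WT_SC. For Nos1 the standard-cage groups are wide because 2 arrays of each read between 8.25 and 8.41; for Sox6 the arrays of both cbp+/- groups lie below those of both wild-type groups.

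Slc6a11, an astrocytic GABA transporter, and Abat, the mitochondrial transaminase that breaks GABA down, varied most with the array sets. Slc6a11 read 8.98, 9.13 and 8.29 in CBP_EE, 9.25, 9.26, 10.03, 9.29 and 8.50 in CBP_SC, 9.22, 9.17 and 7.91 in WT_EE, and 9.23, 9.16, 9.90, 9.28 and 8.32 in WT_SC. The lowest array of each group was its set 4 array, and both SC_3 arrays were the highest. Its averaged housing difference of −0.44 ± 0.27 (SE; limma adjusted p = 0.383) was −0.17 ± 0.067 (adjusted p = 0.167) in the fit with array sets as a block. For Abat the values were −0.21 ± 0.22, and −0.02 in the fit with array sets as a block. Without WT_EE_3 alone they were −0.22 for Slc6a11 and −0.02 for Abat. The 12 astrocyte markers differed by a median of −0.05 in the same comparison, 10 of them lower. Their summed signal ranged from 8263 to 11600 in WT_EE, 10980 to 11790 in WT_SC, 10590 to 11730 in CBP_EE and 10730 to 11940 in CBP_SC. The ranges overlapped, though the lowest array was in WT_EE. The part of this signal in the transporter's values was not tested.

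GABA-B receptors need both subunits at the cell surface. Gabbr2 read 9.64, 9.64 and 9.57 in CBP_EE, 9.71, 9.75, 10.20, 10.30 and 9.52 in CBP_SC, 9.85, 9.73 and 9.56 in WT_EE, and 9.70, 9.75, 10.11, 10.35 and 9.78 in WT_SC. Again the 4 highest values were from SC_3 and SC_4. The averaged housing difference was −0.25 ± 0.13 (SE; limma adjusted p = 0.285), and −0.04 ± 0.046 in the fit with array sets as a block. Gabbr1 differed by −0.09 ± 0.083, and by 0.03 with that block.

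**Figure D4:**
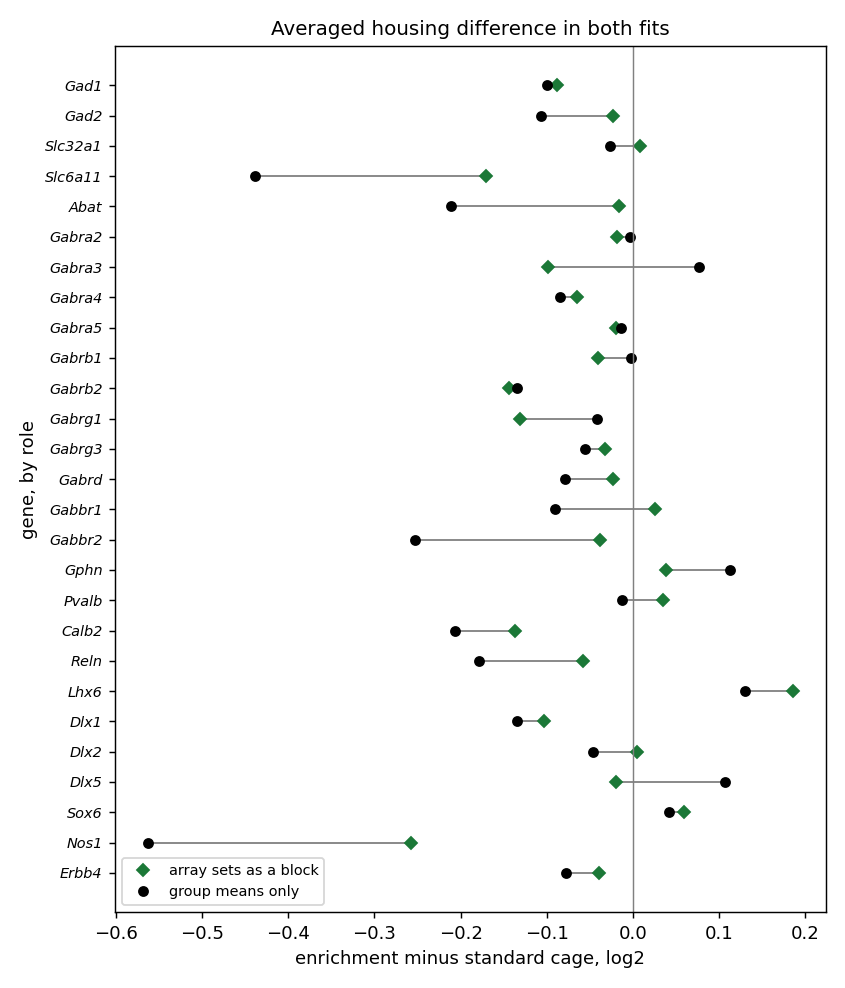
Averaged housing difference (enrichment minus standard cage, log2) of each of the 27 genes in the fit with array sets as a block (green diamonds) and from the group means alone (black circles). The block moved Nos1 to −0.26 from −0.56, Slc6a11 to −0.17 from −0.44 and Gabbr2 to −0.04 from −0.25, while Calb2, Dlx1 and Lhx6 moved by less than 0.1.

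The decarboxylases Gad1 and Gad2 and the vesicular transporter Slc32a1 had averaged housing differences of −0.10 ± 0.13, −0.11 ± 0.11 and −0.03 ± 0.077. Gphn, the scaffold that holds GABA-A receptors at inhibitory synapses, read 9.77, 9.80 and 9.41 in CBP_EE, 9.72, 9.70, 9.5, 9.38 and 9.42 in CBP_SC, 9.66, 9.65 and 9.65 in WT_EE, and 9.65, 9.72, 9.41, 9.45 and 9.49 in WT_SC. Set 1 arrays of both housings stood above most others. Its difference was 0.11 ± 0.074, and 0.04 in the fit with array sets as a block. Pvalb differed by −0.01 ± 0.12 and Erbb4, the neuregulin receptor of parvalbumin cells, by −0.08 ± 0.053.

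Among the 9 GABA-A subunit genes, 8 read lower after enrichment on average, by a median of −0.04, and the range ran from −0.14 for Gabrb2 to 0.08 for Gabra3, which became −0.10 with the block. Gabrb2 encodes a beta subunit of widespread synaptic receptors and had 3 probe sets. Its averaged differences were −0.14 ± 0.10 for the brightest, −0.05 for probe set 10375259 and 0.04 for probe set 10375261, so the probe sets did not share a direction. In the RefSeq gene order Gabrg1 and Gabra2 neighbour each other, as do Gabra4 and Gabrb1, whose starts lie 387 bases apart. Gabra4, a subunit of receptors outside synapses in dentate granule cells, differed by −0.08 ± 0.12, and Gabrb1 by −0.002 ± 0.073. Gabra5, which forms tonic receptors on hippocampal pyramidal cells, differed by −0.01 ± 0.095, and its neighbour Gabrg3 by −0.06 ± 0.069. Gabrd, the partner of the alpha subunits in tonic dentate receptors, differed by −0.08 ± 0.068.

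Gabrg1 encodes a gamma subunit found more in other brain regions and in glia than in hippocampal neurons. It read 6.79, 6.56 and 6.91 in CBP_EE, 6.73, 6.74, 6.79, 6.49 and 6.71 in CBP_SC, 6.61, 6.74 and 7.13 in WT_EE, and 7.12, 7.30, 6.80, 6.70 and 6.92 in WT_SC. The 3 highest values were wild type: WT_SC_2, WT_EE_3 and WT_SC_1. Its wild-type housing difference turned with the array set: −0.54 ± 0.092 within set 1 (limma adjusted p = 0.00755) and 0.21 in set 4. In set 1, which was formed from these same values, 6513 of 21780 probe sets passed the threshold for wild-type housing. In set 4 each group has 1 array and no test was possible. Over all arrays the Gabrg1 difference was −0.15 ± 0.14, −0.30 without WT_EE_3 and −0.04 without WT_EE_1. Gabrg3 likewise had −0.21 within set 1 and 0.40 in set 4 in wild type.

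Housing was also compared within each genotype. Within cbp+/-, 18 of 27 genes read lower after enrichment with a median of −0.05, against 45% of all probe sets and 58.1% of those brighter than the median. Nos1, at −0.58 ± 0.25, had the smallest p (limma adjusted p = 0.999). In wild type 21 of 27 read lower with a median of −0.07, against 41.6% of all probe sets and 67.7% of those brighter than the median. Dlx1, at −0.17 ± 0.071, had the smallest p there (limma adjusted p = 0.24). Quantile normalization left 14 of 27 lower in wild type (49.9% of all probe sets), and leaving out WT_EE_3 left 13 with a median of 0.004. In wild type 10 of 12 principal neuron markers also read lower (median −0.08), and 8 of 10 oligodendrocyte markers (median −0.17). Higher there were 6 of 9 striatal markers (median 0.04) and 9 of 11 choroid plexus markers (median 0.09). Choroid plexus markers were high on CBP_SC_3, where their summed signal was 7865 against 743.7 to 814.6 in CBP_EE. All 11 of them read lower in CBP_EE than in CBP_SC, by a median of −0.21. Without CBP_SC_3 the Nos1 difference in cbp+/- was −0.42.

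For genotype, same-numbered cbp+/- and wild-type arrays of one housing are treated as pairs here. Their deviations correlated, but these arrays also share an array set, and differently numbered arrays were not compared. The correlations therefore do not show that the numbers pair the arrays, and the titles give only a replicate number. Averaged over housings, 16 of 27 genes read lower on arrays labelled cbp+/-, with a median of −0.04, while 56.7% of all probe sets and 39.9% of those brighter than the median did so. With quantile normalization 21 of 27 did, against 51.7% of all probe sets. In standard cages 21 of 27 genes read lower (median −0.04), against 46.3% of all probe sets and 47.6% of those brighter than the median. In enrichment 13 of 27 did so (median 0.001), against 58.3% and 38.2%. Quantile normalization gave 20 of 27 in standard cages, against 49.3% of all probe sets. In enrichment it gave 21 of 27 (median −0.04), against 51.4%. Leaving out 1 array at a time moved the standard-cage count between 12 (without CBP_SC_5) and 24, the enrichment count between 11 and 19 and the averaged one between 13 and 22. In standard cages 11 of 11 choroid plexus markers read higher in CBP_SC than in WT_SC (median 0.20). Their summed signal was 7865 on CBP_SC_3, and the next highest was 2519 on WT_SC_1. Lower in CBP_SC were 9 of 10 oligodendrocyte markers (median −0.085), 9 of 12 principal neuron markers and 9 of 12 astrocyte markers. Higher were 7 of 9 microglia and 6 of 9 endothelial markers. The part of these cells in the counts was not tested.

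Sox6 (probe set 10567108) is a factor that interneurons from the medial ganglionic eminence need to mature and that oligodendrocyte precursors also express. It had the smallest p of the 27 genes in the 3 genotype comparisons of the unpaired fit. In the paired fit Nos1 had a smaller one on average, Gabrg1 and Nos1 in standard cages, and Nos1, Gad2, Gabrd and Abat in enrichment. Sox6 read 7.13, 7.12 and 7.11 in CBP_EE against 7.30, 7.17 and 7.26 in WT_EE. CBP_SC arrays read 7.10, 7.12, 7.12, 7.14 and 6.94 against 7.22, 7.15, 7.19, 7.21 and 7.19 in WT_SC. All 8 arrays labelled cbp+/- read below all 8 wild-type arrays, with 7.138 the highest of the cbp+/- arrays and 7.153 the lowest of the wild-type arrays. Within standard cages alone, 0.0872% of all probe sets were lower and apart, and within enrichment 6.85%. Of 21780 probe sets, 1 (0.00459%) was so separated with cbp+/- lower, Sox6 itself, and 0 with cbp+/- higher. After quantile normalization the groups met, at 7.141 in cbp+/- and 7.140 in wild type. The averaged difference was −0.12 ± 0.034 (SE, 95% interval −0.19 to −0.05), a fold of 0.922, lower in 8 of 8 pairs. Its unadjusted p in limma was 0.00349 and its adjusted p 0.999. In the paired fit the adjusted p was 0.28, and leaving out 1 array at a time kept the difference between −0.14 and −0.10. The 8 oligodendrocyte progenitor markers differed by a median of −0.04 in the same comparison, 6 of 8 lower, and their part in the Sox6 values was not tested.

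**Figure D5:**
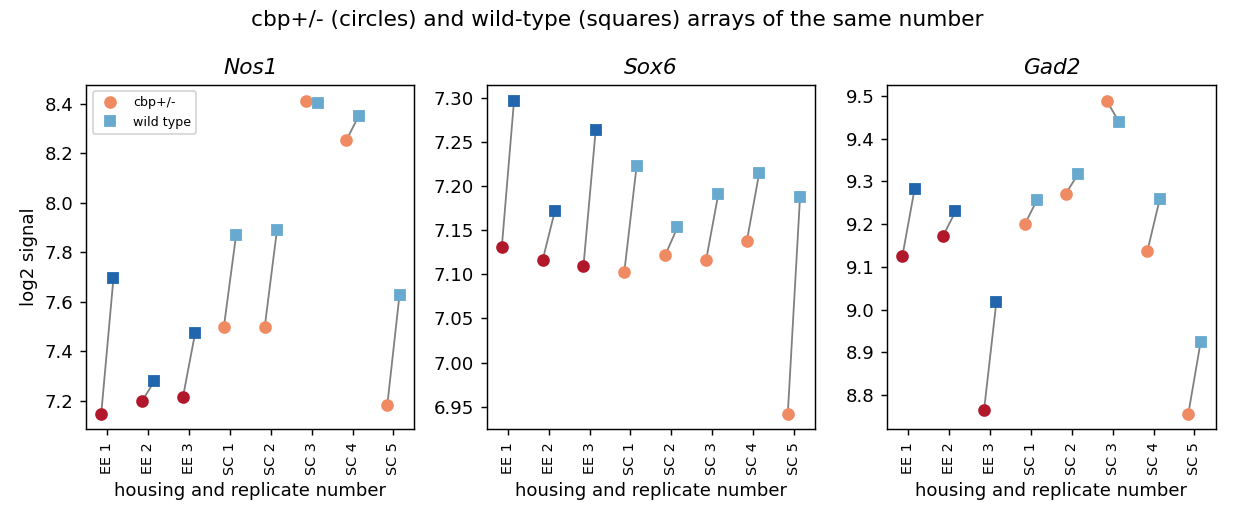
Log2 signal of Nos1, Sox6 and Gad2 on cbp+/- arrays (circles) and wild-type arrays (squares) of the same housing and replicate number, joined by a line; each panel has its own scale. The cbp+/- array is the lower of the pair in 8 of 8 pairs for Sox6 and in 7 of 8 for Nos1 and Gad2. It is also the lower in 7 of 8 for Pvalb and Gabrg1, which are not drawn. The share of all probe sets lower in so many pairs was not counted.

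Nos1 differed by −0.28 ± 0.18 between genotypes on average (SE; limma adjusted p = 0.999), lower on the cbp+/- array in 7 of 8 pairs. Pairing cut its SE to 0.067 (adjusted p = 0.243). In enrichment the groups were apart, 7.15 to 7.21 in CBP_EE against 7.28 to 7.70 in WT_EE, which held for 3 of the 27 genes (Nos1, Sox6 and Gabrg3), against 6.85% of all probe sets in that direction. In standard cages the difference was −0.26 ± 0.22, −0.42 without CBP_SC_3 and −0.11 without CBP_SC_5, and the 2 SC_3 arrays were nearly equal at 8.41 in CBP_SC and 8.40 in WT_SC. Gad2, a decarboxylase of axon terminals, read 9.12, 9.17 and 8.76 in CBP_EE against 9.28, 9.23 and 9.02 in WT_EE. In standard cages it read 9.20, 9.27, 9.49, 9.14 and 8.76 in CBP_SC against 9.26, 9.32, 9.44, 9.26 and 8.92 in WT_SC. The groups overlapped widely, yet 7 of 8 pairs were lower in cbp+/-. Its difference of −0.11 ± 0.11 had an SE of 0.036 and an adjusted p of 0.318 in the paired fit, and was −0.05 without CBP_EE_3. Gad1, the other decarboxylase, differed by 0.03 ± 0.13 and Slc32a1 by −0.06 ± 0.077. Pvalb (−0.05 ± 0.12) and Gabrg1 were also lower on the cbp+/- array in 7 of 8 pairs. The share of all probe sets lower in so many pairs was not counted.

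Both gamma subunit genes read lower on average on arrays labelled cbp+/-, and neither passed the test. Gabrg1 read lower in 5 of 5 standard-cage pairs, by −0.28 ± 0.12 (SE; limma adjusted p = 1.00), and the paired fit gave an SE of 0.081 and an adjusted p of 0.855. Without WT_SC_2 the difference was −0.19. Gabrg3 read 7.54, 7.47 and 7.46 in CBP_EE, 7.59, 7.62, 7.73, 7.73 and 7.43 in CBP_SC, 7.54, 7.59 and 8.03 in WT_EE, and 7.82, 7.72, 7.70, 7.64 and 7.63 in WT_SC. The enriched groups only just missed overlapping, at a linear signal of 186.35 in CBP_EE_1 and 186.4 in WT_EE_1, and 1 enriched wild-type array, WT_EE_3, stood above all 15 others. The difference was −0.23 ± 0.11 in enrichment (adjusted p = 0.924) and −0.08 without WT_EE_3. Averaged over housings it was −0.16 ± 0.069 (adjusted p = 0.999), and again −0.08 without WT_EE_3. The averaged difference of Gabrg1 was −0.17 ± 0.099, and −0.10 without that array.

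Gabrd ran the other way. It read 6.85, 6.81 and 6.71 in CBP_EE against 6.77, 6.65 and 6.42 in WT_EE, higher on the cbp+/- array in 3 of 3 pairs though the groups overlapped. In standard cages it read 6.55, 6.78, 7.0, 6.86 and 6.81 in CBP_SC against 6.63, 6.68, 6.84, 6.77 and 6.89 in WT_SC. The difference was 0.17 ± 0.11 in enrichment (SE; limma adjusted p = 0.935) and 0.11 ± 0.068 on average, where the paired SE was 0.041 (adjusted p = 0.372). Without WT_EE_3 these were 0.08 and 0.06. The other 8 GABA-A subunit genes had averaged genotype differences between −0.17 for Gabrg1 and 0.07 for Gabra3. Pairing took 7 of 27 genes to an unadjusted p under 0.05 on average (11.7% of all probe sets), namely Gad2, Abat, Gabrg1, Gabrg3, Gabrd, Sox6 and Nos1, and 0 past the adjusted threshold.

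The interaction asks whether the housing difference depends on genotype. Of the 27 genes, 12 had a negative and 15 a positive value, with a median of 0.01 (57.5% of all probe sets negative); leaving out 1 array at a time gave 6 to 16 negative. The smallest p values were those of Gabrg3 at −0.15 ± 0.14, Gabrg1 at 0.21 ± 0.20 and Gabra3 at 0.26 ± 0.27, each with an adjusted p of 1.00 in limma. Gabra3, an alpha subunit on chromosome X, read 9.20, 9.14 and 9.36 in CBP_EE, 9.24, 9.16, 9.08, 8.48 and 9.17 in CBP_SC, 9.14, 9.17 and 8.79 in WT_EE, and 9.31, 9.31, 9.09, 8.52 and 9.21 in WT_SC. Both SC_4 arrays were far below the rest, and WT_EE_3 was the next lowest. The 95% interval of its interaction ran from −0.31 to 0.84, and that of Gabrg3 from −0.45 to 0.15. The Gabrg3 value became 0.005 without WT_EE_3.

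A wider list of GABA and interneuron genes, 59 of 67 with a probe set and none of them among the 27, also had 0 past the threshold in each comparison. At an unadjusted p under 0.05, 9 read lower and 9 higher after enrichment on average, 30.5% of the list, against 19.1% of all probe sets. Npy, a peptide of many hippocampal interneurons, differed by 0.61 ± 0.14 (SE; limma adjusted p = 0.127). It read 9.53, 9.60 and 10.11 in CBP_EE against 9.05, 8.91, 9.16, 8.99 and 9.61 in CBP_SC, and 9.63, 9.79 and 9.88 in WT_EE against 8.88, 9.02, 9.32, 8.84 and 9.69 in WT_SC. In each genotype only the SC_5 array, of set 4, reached the enriched range. Aldh5a1, the dehydrogenase that acts after Abat in GABA breakdown, differed by −0.29 ± 0.080 (adjusted p = 0.142) and Adarb2, a marker of interneurons from the caudal ganglionic eminence, by −0.25 ± 0.071 (adjusted p = 0.143). Crhbp, which binds corticotropin-releasing hormone and marks some somatostatin cells, was higher in CBP_EE than in CBP_SC by 0.36 ± 0.13 (adjusted p = 0.999). Its groups were apart, as for 1.64% of all probe sets in that direction, and it was the 1 of the 59 genes among them. In the same comparison the synaptic cell-surface gene Mdga1 differed by −0.30 ± 0.10. The betaine and GABA transporter Slc6a12 was higher in WT_EE than in WT_SC by 0.23 ± 0.076 (adjusted p = 0.165). For genotype, Sncg, a marker of some cholecystokinin interneurons, differed by 0.22 ± 0.069 on average (adjusted p = 0.999), higher on the cbp+/- array in 7 of 8 pairs, and the chloride importer Slc12a2 by −0.15 ± 0.066, higher in 1 of 8. Within enrichment, Gabarapl1, of the GABARAP family of trafficking and autophagy proteins, differed by 0.37 ± 0.13 and Gabra6 by −0.12 ± 0.048 (adjusted p = 0.924 for each), and in standard cages the gene with the smallest p was Nr2f1, at −0.18 ± 0.099 (adjusted p = 1.00). The interaction of Gabarapl1 was 0.38 ± 0.17 (adjusted p = 1.00).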

How the data were processed

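Hippocampal RNA pools were measured on 16 single-colour arrays. Each probe set has 1 deposited intensity per array, linear and between 22.12 and 16520.86. Per the submitters' processing notes RMA was run, and per the labels' protocols GeneSpring GX processed and normalized the data. Versions, any baseline transformation and the genome build are not stated there, and scanner files were not used here. The spread between arrays and the number of arrays, not a read depth, set the precision. Dim probe sets were kept, since the deposited table has no detection calls.

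Of 28815 probe sets, 21780 had 1 gene symbol in the platform's table (19935 genes) and were tested, 1605 had several, and 5430 were not listed. Groups and replicate numbers came from the titles. Log2 values were fitted with limma 3.58.1 in R 4.3.3 (lmFit and eBayes, 4 group means, 12 residual degrees of freedom), and Benjamini-Hochberg adjustment ran over all 21780, with a threshold of 0.05. Errors after ± are SEs of that fit. In the paired fit, housing and replicate number together were a block. Correlations of the deviations of same-numbered genotypes were 0.54 to 0.77 in standard cages and 0.26 to 0.63 in enrichment. Across housings they were −0.39 to 0.37, and numbers were not used to pair housings. Differently numbered arrays were not compared, so a pairing by number beyond the shared array set was not tested. On simulated arrays, 190 of 200 probe sets with a log2 change of 1 for housing in cbp+/- passed the threshold among 21780. Noise was drawn independently for each value, without array sets. Changes as small as those described here were not simulated, so their chance of passing is not known from it.

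The 27 genes and all lists were chosen with earlier results of these data known. Every array value is given for the 3 genes with the smallest p in each comparison and the 1 with the smallest in each role; of other pathway genes, up to 3 a comparison could be named. The alternatives tried were normalization, a filter on dim probe sets, an offset, array sets, blocks, array weights, the samples and probe sets fitted, and leaving out each array. Ward sets were added after seeing the data. Promoter sequences are from RefSeq, GRCm38.p6.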

Additional observations from a re-analysis of the deposited data

Results flagged for a closer look

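In the standard-cage groups of 5 arrays, 5 of 54 tests for a single array far from the rest passed Dixon's 95% critical value of 0.71, where chance would flag about 1 in 20. The Gabra3 signal was 8.480 on CBP_SC_4, with the nearest other CBP_SC array at 9.083, and 8.523 on WT_SC_4, with the nearest other WT_SC array at 9.093. Gabrg1 was also low on CBP_SC_4, at 6.493 with the nearest at 6.715. Dlx1 was high on CBP_SC_3, at 7.429 with the nearest at 7.335, an array that also had the highest summed choroid plexus signal. Sox6 was low on CBP_SC_5, at 6.942 with the nearest at 7.103; without that array the averaged genotype difference of Sox6 was −0.10.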

How the results depend on the processing

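For the 25 named differences, 676 of 709 alternative values kept their direction and their side of the threshold or moved by less than the spread. The 0 calls in each comparison held under quantile normalization and without dim probe sets, and in the 4 comparisons of pairs of groups also when only those groups were fitted; a replicate block within housing changed no call. Housing in wild type called 25 probe sets with an offset of 50, 36 with all deposited probe sets, 1 with average-linkage sets as a block, 1871 in average-linkage set 1, 15 with Ward sets as a block and 6513 in Ward set 1. Averaged housing called 1, 1941, 15 and 5470 with these 4, and 326 with the replicate number across all groups as a block. A pairing of housings by number was not established. Average-linkage sets as a block also called 1 for housing in cbp+/-, and Ward sets 1 for averaged genotype. Leaving out 1 array gave 0 to 19 for wild-type housing and 0 to 230 for averaged housing, most without CBP_EE_3. Array weights called 1039 for housing in cbp+/-, 5254 for housing in wild type, 2474 for genotype in enrichment, 429 for the interaction, 6167 for averaged housing and 152 for averaged genotype. Why was not tested. Of the 27 genes, array weights called 4 for wild-type housing (Gabrg1, Calb2, Dlx1, Nos1), against 5254 of 21780 probe sets. They called 2 for genotype in enrichment (Dlx1, Dlx2), against 2474, and 5 for averaged housing (Gabrg3, Calb2, Reln, Dlx1, Nos1), against 6167. Ward set 1 called 5 for wild-type housing (Gabra4, Gabrg1, Gabrg3, Calb2, Nos1), against 6513, and 4 for averaged housing (Gabra4, Gabrg1, Gabrg3, Nos1), against 5470. In each case the share of the 27 genes was below that of all probe sets. Ward sets come from the values tested, so p values from them may be too small.

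Directions turned as follows. The interaction of Gabrg3 was 0.0453 with average-linkage sets as a block, 0.0187 in average-linkage set 1, 0.0474 with array weights and 0.10 in Ward set 1, and −0.24 to 0.0047 with 1 array left out, the last without WT_EE_3. That of Gabrg1 was −0.00889 in Ward set 4. Nos1 between genotypes in standard cages was 0.00908 in average-linkage set 2. For housing in cbp+/-, Reln was 0.10 and Nos1 0.0338 in average-linkage set 3 and in Ward set 4, and Calb2 was 0.00173 with array weights. The cause was not tested. Array number, 3 to 5 a group, limits the precision of each value.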
